A study of Mus musculus with 5 samples.

Results

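The CCR7 ligand genes Ccl21a and Ccl19 and the cytokine receptor genes Il11ra1 and Cntfr lie within 1.12 Mb of each other on mouse chromosome 4 and are described here. They are 4 of the 27843 genes counted, and all 4 were among the 15874 genes with enough reads to be tested. They were chosen by name, for their place near the gene whose promoter drives the Cre transgene of the study, and with their difference between knockout and control already known. That difference is therefore given as a description, with no p-value. Whether a member passed in the fit over all genes is stated, and nothing is concluded from it.

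The series measured polyA RNA of lymphatic endothelial cells (LECs), the cells that line lymphatic vessels and lymph node sinuses, sorted from lymph nodes of 8 weeks old C57BL/6 mice as CD45-, TER119-, CD31+ and podoplanin+ cells. The 3 control libraries came from Rankl flox/flox mice, which the labels call littermates. The other group, 2 knockout libraries, came from Ccl19 Cre Rankl flox/flox mice, in which Cre made by Ccl19-expressing stromal cells removes RANKL, a TNF family cytokine. Both groups carry the floxed alleles and the knockouts alone carry Cre, so an effect of the transgene and an effect of the deletion cannot be told apart. The labels do not say how the transgene was built, where it lies or how many mice stand behind a library.

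CCR7 is the chemokine receptor by which dendritic cells and T cells enter and move within lymph nodes. CCL21 and CCL19 are its ligands; CCL21 carries a charged tail that holds it on matrix and cell surfaces, and CCL19 lacks it. IL-11 receptor alpha and the CNTF receptor alpha bind their cytokines without signalling on their own, and the signal passes through the shared chain gp130, joined in the case of CNTF by the LIF receptor, to JAK kinases and STAT3.

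Library totals were 52839375 to 70171307 counts, and 20359 to 21933 genes had at least 1 read. All 12 lymphatic markers examined were detected, among them Pecam1 (CD31, 1330 ± 8.43 CPM in controls and 1329 ± 25.4 in knockouts), Pdpn (podoplanin, 96.5 ± 7.74 and 112 ± 17.2) and Prox1 (1459 ± 103 and 868 ± 22.9), the transcription factor of lymphatic fate. Of the 12, Mmrn1, the gene of a secreted protein of LECs, was higher in knockouts, at 1706, 1127 and 1292 CPM in controls and 5029 and 3056 in knockouts (log2 fold change 1.56 ± 0.25, adjusted p = 0.022, edgeR). Prox1 (-0.75 ± 0.11, adjusted p = 0.0186, edgeR) and Kdr (-0.70 ± 0.11, adjusted p = 0.0204, edgeR), a VEGF receptor, were lower. All 3 calls were lost without control 2 or 3, and that of Kdr also without control 1 and with an offset for exon length and GC (-0.54). The part of these changes in the values of the members was not tested. CPM are counts scaled to library size, given as mean ± SD over 3 control and 2 knockout libraries. The knockouts stood further apart from each other than any pair of controls: their log2(CPM + 1) differed by a median of 0.198 over the tested genes, against 0.112 to 0.136 between controls and 0.208 to 0.252 between groups. Tnfsf11, the gene of RANKL, had 27, 13 and 9 reads in controls 1, 2 and 3 and 9 and 0 reads in knockouts 1 and 2. The deletion is meant for stromal cells, so these LEC reads do not check it. In such pools of sorted cells, fewer cells that express a gene and less RNA per cell cannot be told apart.

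Ccl21a (ENSMUSG00000094686, chr4:42772860-42773993 of GRCm38, minus strand, protein coding) encodes CCL21 with a serine at the position that names this form. Chromosome 4 holds near-identical copies, and 4 of them were found among the annotated GENCODE M21 transcripts: Gm21541, Gm13304, Ccl21b and Gm10591. Over the 402 coding bases, Ccl21a differed from each of the 4 copies at the same 2 positions, T84A and C194T, an identity of 99.5%. Positions count from 1 at the A of the start codon, with the base of Ccl21a first. The windows around them are shown because reads of 50 bases can be told apart within the coding sequence only where they cover one of these bases, which stand in capitals. Coding bases 64 to 104 of Ccl21a (capital at position 42773747, minus strand) and of the copy Gm21541 (41903856, plus strand) were:
Ccl21a: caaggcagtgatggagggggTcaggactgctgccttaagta
Gm21541: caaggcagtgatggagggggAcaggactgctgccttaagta
Coding bases 174 to 214 of the same genes (capitals at 42773543 and 41904060) were:
Ccl21a: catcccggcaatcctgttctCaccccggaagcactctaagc
Gm21541: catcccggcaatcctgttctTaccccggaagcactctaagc
The other 3 copies had the bases of Gm21541 at both positions.

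The promoters were as alike as the transcripts. RefSeq (GRCm38.p6) places the gene it names Ccl21d at the position of Gm21541, and its promoter window, 250 bases before to 50 bases after the start, differed from that of Ccl21a at 2 of 299 aligned bases, given in capitals. The windows were chr4:42773942-42774241 (minus strand) for Ccl21a and chr4:41903363-41903662 (plus strand) for Ccl21d:
Ccl21a: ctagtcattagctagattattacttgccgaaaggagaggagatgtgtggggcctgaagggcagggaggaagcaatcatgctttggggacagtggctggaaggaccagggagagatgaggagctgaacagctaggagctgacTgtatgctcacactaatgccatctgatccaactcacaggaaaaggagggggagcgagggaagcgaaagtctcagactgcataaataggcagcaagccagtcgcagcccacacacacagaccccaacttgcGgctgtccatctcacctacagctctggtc
Ccl21d: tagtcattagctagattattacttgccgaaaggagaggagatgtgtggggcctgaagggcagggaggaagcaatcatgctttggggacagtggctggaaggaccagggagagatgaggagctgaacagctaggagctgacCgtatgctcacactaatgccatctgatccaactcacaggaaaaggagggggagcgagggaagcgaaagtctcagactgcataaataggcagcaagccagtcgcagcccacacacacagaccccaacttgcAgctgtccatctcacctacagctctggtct
CCL21 is known as a target of the NF-kB pathway that the lymphotoxin beta receptor feeds, so the windows were searched for the NF-kB consensus on both strands. The motif was in 2779 of 32851 RefSeq promoter windows of this length (8.46%), and in neither of these windows. Only this pattern was searched, and only in promoter windows. A miss, here or in the windows given below, does not show that a gene lacks an NF-kB site.

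Ccl21a stood far higher in both knockout libraries than in any control. The counts were 2053, 2122 and 1258 in controls 1, 2 and 3, against 36214 in knockout 1 and 8242 in knockout 2. In CPM these were 28.9, 34.0 and 24.2 against 661 and 142. The groups did not overlap, and knockout 1 lay far above knockout 2.

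Knockout 1 was 22.8-fold and knockout 2 4.88-fold above the control mean of 29.0 ± 4.90 CPM. The log2 fold change was 3.79 ± 0.57 (SE), the 20th highest of the 15874 genes tested. It was 2.28 without knockout 1 and 4.50 without knockout 2, so its size rested on which knockout was kept. Between the knockouts the gene differed by 2.22 on the log2 scale, and 3.24% of the tested genes differed by more. By level per transcript length, as CPM per kilobase of exon (RPKM), it ranked 1221 to 1691 of 15821 genes in controls, 34 in knockout 1 and 301 in knockout 2.

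Gm21541 (ENSMUSG00000094065, chr4:41903610-41904743, plus strand, 849.8 kb from Ccl19) carried the same pattern at a lower level. It had 29, 22 and 15 counts in controls and 1038 and 169 in knockouts, or 0.408, 0.353 and 0.289 against 19.0 and 2.91 CPM. Both knockouts lay above all controls, and knockout 1 was again the higher. The log2 fold change was 4.94 ± 0.76 (SE; adjusted p = 0.0204, edgeR quasi-likelihood test, Benjamini-Hochberg), and 3.03 without knockout 1. The gene did not pass without control 1, 2 or 3, with no filter on low counts or with limma-voom.

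These counts are not independent of those of Ccl21a, so the p of Gm21541 is no test apart from that chosen gene. Of the 821 windows of 50 bases in the Ccl21a transcript, 588 (71.6%) also occur in another annotated transcript, and for Gm21541 it is 797 of 821 (97.1%). The complete transcripts, of 870 bases each, differed at 6 bases. Which gene was given a read that fits several copies is not stated in the labels, so the split of reads between the copies is uncertain. Ccl21b, Gm13304 and Gm10591 were not analysed here. As counted, Gm21541 held 1.39% (95% exact binomial interval 0.935 to 1.99), 1.03% (0.644 to 1.55) and 1.18% (0.661 to 1.94) of the sum of both genes in controls 1, 2 and 3. The share was 2.79% (2.62 to 2.96) in knockout 1 and 2.01% (1.72 to 2.33) in knockout 2. The interval of knockout 1 lay above all controls, whereas that of knockout 2 overlapped those of controls 1 and 3. These intervals cover counting error only.

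**Figure D1:**
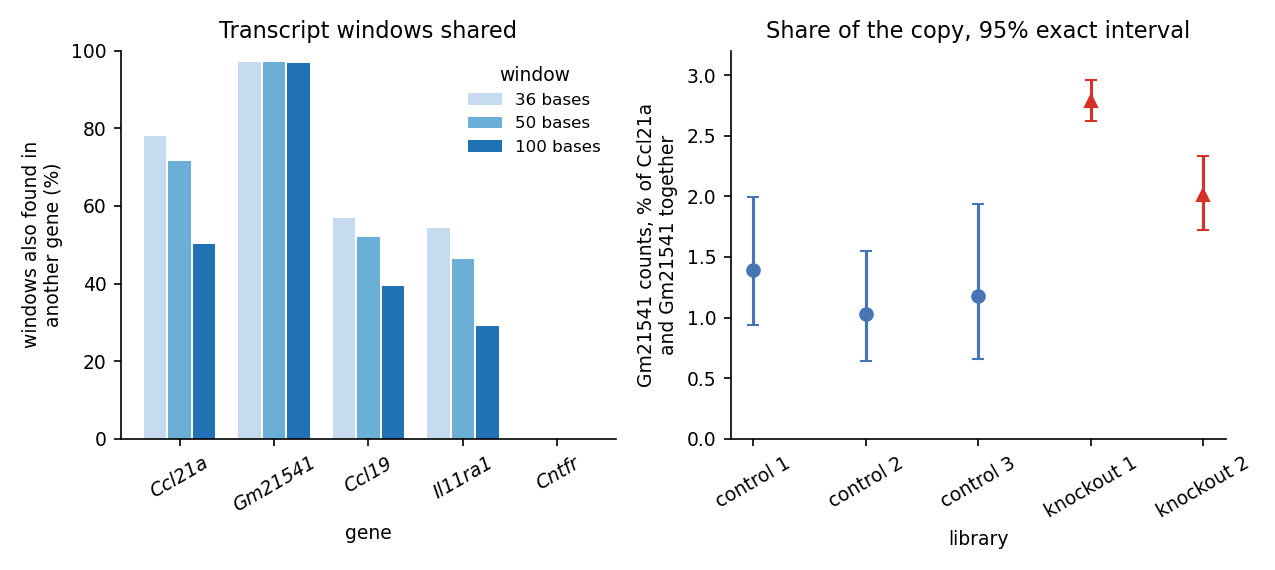
Left, share of transcript windows of 36, 50 and 100 bases that also occur in a transcript of another annotated gene (%), for the 4 genes and the copy Gm21541; Cntfr is at 0. Right, Gm21541 counts as a percentage of the counts of Ccl21a and Gm21541 together in each library, with 95% exact binomial intervals; the share is 1.03% to 1.39% in controls and 2.01% and 2.79% in knockouts.

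Ccl19 (ENSMUSG00000071005, chr4:42754525-42756577, minus strand, protein coding) lies 16.3 kb from Ccl21a and is the gene whose promoter drives Cre. Its level was low and overlapped between the groups. Counts were 330, 116 and 183 in controls and 153 and 114 in knockouts. As CPM, controls 1, 2 and 3 stood at 4.65, 1.86 and 3.52 and the knockouts at 2.79 and 1.96, so the control libraries spanned both knockouts. The means were 3.34 ± 1.40 and 2.38 ± 0.59 CPM, with a log2 fold change of -0.49 ± 0.41 (SE). It was -0.17 without control 1 and -0.78 without control 2, the highest and the lowest control.

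The RPKM of Ccl21a was 6.20, 18.2 and 6.85 times that of Ccl19 in controls 1, 2 and 3, and 235.9 and 72.1 times in knockouts 1 and 2. The split of the Ccl21a reads from its copies, uncertain as said above, bears on these ratios. Ccl19 also has copies: 475 of its 914 windows of 50 bases (52.0%) occur in Gm2564, Ccl19-ps3, Gm12407 or Ccl19-ps1. Gm2564, the copy counted at the level of Ccl19 itself, had 3.94 ± 1.15 and 4.17 ± 1.38 CPM, a log2 fold change of 0.08 ± 0.33 (adjusted p = 0.905, edgeR). Gm12407 had 15, 15 and 11 counts in controls and 2 and 6 in knockouts, with both knockouts below, and did not pass (log2 fold change -1.62 ± 0.70, adjusted p = 0.196, edgeR).

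The likeness reached the Ccl19 promoter as well. Its RefSeq window (chr4:42756316-42756615, minus strand) holds a stretch of 181 bases, in capitals, that is identical in the window of Gm12407 (chr4:41793690-41793989, minus strand):
Ccl19: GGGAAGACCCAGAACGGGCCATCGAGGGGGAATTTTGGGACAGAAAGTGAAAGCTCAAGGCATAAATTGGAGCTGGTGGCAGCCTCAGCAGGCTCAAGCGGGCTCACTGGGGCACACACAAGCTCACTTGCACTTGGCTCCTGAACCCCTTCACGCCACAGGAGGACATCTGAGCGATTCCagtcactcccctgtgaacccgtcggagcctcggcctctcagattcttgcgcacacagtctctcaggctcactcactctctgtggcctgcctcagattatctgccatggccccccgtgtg
No match to the NF-kB consensus was in this window.

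**Figure D2:**
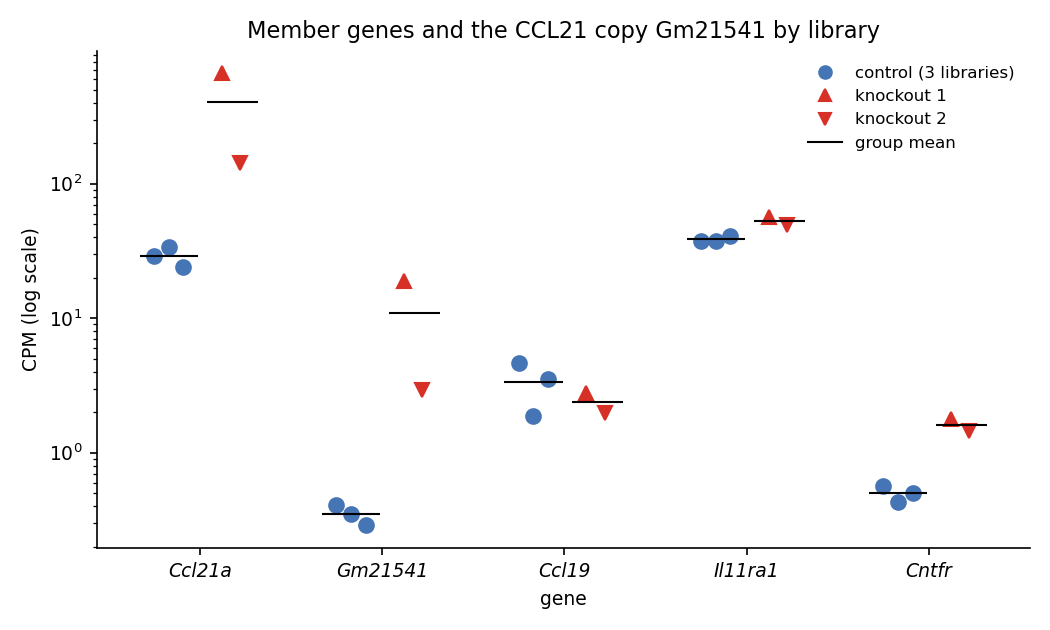
Level of the 4 genes and of Gm21541 in each library (CPM, log scale): circles, 3 controls; triangles, 2 knockouts; bars, group means. Ccl21a and Gm21541 stand apart in both knockouts and differ between them (661 and 142 CPM for Ccl21a), Ccl19 overlaps between groups, and Il11ra1 and Cntfr lie above all controls in both knockouts.

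Most receptors and partners on the CCR7 axis list did not pass the test. Of its 11 genes, the ligands left out, 2 rose and 1 fell, with a median log2 fold change of -0.01. Over all tested genes 7.24% were called, 3.25% higher and 3.99% lower, with a median of 0.00. Those that rose were the atypical receptors that take up chemokines without signalling to G proteins: Ackr4, which scavenges CCL19 and CCL21, and Ackr3, which scavenges CXCL12.

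Ackr4 had 218, 442 and 380 CPM in controls and 847 and 781 in knockouts. Its log2 fold change was 1.23 ± 0.27 (adjusted p = 0.0433, edgeR). For Ackr3 the libraries had 137, 267 and 207 CPM in controls and 573 and 478 in knockouts, a change of 1.37 ± 0.25 (adjusted p = 0.0292, edgeR). Unlike Ccl21a, both scavengers had like levels in the 2 knockouts. Arrb1, the gene of beta-arrestin 1, an adaptor that binds activated receptors, fell from 263 ± 25.1 to 173 ± 14.9 CPM (log2 fold change -0.60 ± 0.11, adjusted p = 0.0316, edgeR).

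Ccr7 itself was low and did not pass. Its level was 5.08, 2.26 and 2.79 CPM in controls and 2.94 and 8.03 in knockouts, overlapping, with a log2 fold change of 0.70 ± 0.49 (edgeR, adjusted p = 0.418). Arrb2 had a value of -0.55 ± 0.14 (adjusted p = 0.0652, edgeR). The kinase gene Grk6, the G protein gene Gnai2, St8sia4, which adds the polysialic acid that CCL21 handles, and Ccrl2 had log2 fold changes of -0.30 to -0.01. None of the 3 calls of this list was kept without control 3. Ackr3 and Ackr4 also lost theirs without either knockout library and with no filter on low counts, at log2 fold changes of 1.23 to 1.49 for Ackr3 and 1.17 to 1.28 for Ackr4. Ackr4 lost its call without control 2 as well (1.44). Arrb1 lost its call without control 1 or 2 and with the offset for length and GC (-0.40).

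At the other end of the region, Cntfr and Il11ra1 lie next to each other, 2.9 kb apart and 985 kb or more from Ccl19. Cntfr (ENSMUSG00000028444, chr4:41657498-41697089, minus strand, protein coding) encodes the membrane-anchored receptor of ciliary neurotrophic factor. Il11ra1 (ENSMUSG00000073889, chr4:41699989-41769474, plus strand, protein coding) encodes the receptor alpha chain of interleukin 11. They lie back to back, and 5 other genes of the count table lie inside the annotated body of Il11ra1.

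Cntfr was one of the low genes in these cells. It had 40, 27 and 26 counts in controls and 98 and 84 in knockouts, which is 0.563, 0.433 and 0.50 against 1.79 and 1.44 CPM. Each knockout lay above every control, at 3.59 and 2.90 times the control mean. The means were 0.499 ± 0.065 and 1.62 ± 0.245 CPM and the log2 fold change 1.69 ± 0.34 (SE), within 1.52 to 1.83 with any library left out. Of the 4 genes, it was the one with no window of 50 bases in another annotated transcript (0 of 2729).

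The Cntfr promoter is repeated in the region even though its transcript is not. The RefSeq window at chr4:41695426-41695725 (minus strand), 1 of 6 of this gene, holds 288 bases, in capitals, that are identical in a window that RefSeq lists for Ccl21b (chr4:42172870-42173169, plus strand). With the window of 4930578G10Rik (chr4:42670040-42670339, plus strand) it shares an identical stretch of 299 bases:
Cntfr: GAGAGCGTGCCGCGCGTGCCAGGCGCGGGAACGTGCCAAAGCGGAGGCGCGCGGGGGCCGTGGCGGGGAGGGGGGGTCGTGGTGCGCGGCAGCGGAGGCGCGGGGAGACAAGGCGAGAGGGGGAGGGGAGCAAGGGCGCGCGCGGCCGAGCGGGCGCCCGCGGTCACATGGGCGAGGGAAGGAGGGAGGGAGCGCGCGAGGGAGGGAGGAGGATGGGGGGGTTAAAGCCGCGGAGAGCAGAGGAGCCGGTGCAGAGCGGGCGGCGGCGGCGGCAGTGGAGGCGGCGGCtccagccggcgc
The NF-kB consensus had no match there and 2 matches in 1 other window of Cntfr, and none in the 2 windows of Il11ra1.

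Il11ra1 was the most even of the 4. The counts were 2669, 2342 and 2107 in controls and 3083 and 2863 in knockouts. Controls stood at 37.6, 37.5 and 40.5 CPM and knockouts at 56.3 and 49.2, so the groups did not overlap, and the knockouts were 1.46 and 1.28 times the control mean. Without knockout 1 the log2 fold change of 0.45 ± 0.10 (SE) came to 0.35. Of its 4690 windows of 50 bases, 2170 (46.3%) occur in Gm13305 or Il11ra2. Gm13305 had 12 to 22 counts in any library. Il11ra2 was not analysed here.

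By length, Il11ra1 RNA exceeded Cntfr RNA in every library, by 41.5, 54.0 and 50.4 times in controls and 19.6 and 21.2 times in knockouts as RPKM. In the fit over all genes, 3 of the 4 members (all but Ccl19) were among the 7.24% of genes called, and the same 3 had both knockouts above all controls, as did 22.8% of the genes tested (45.4% had them on one side). All 3 lost that call without control 1, 2 or 3 and in the fit with replicate numbers as a block. Ccl21a also lost it with no filter on low counts, Il11ra1 and Cntfr without knockout 1, and Il11ra1 with library totals alone. Nothing follows from these calls or shares, since the members were chosen with this contrast known. Among them the order of the RPKM was Ccl21a, Il11ra1, Ccl19 and Cntfr in all 5 libraries. RPKM divide by the union exon length and are not corrected for sequence shared with copies, and how far this bears on the order was not tested. The spread of the libraries did not bring neighbours in this order to overlap in either group: in controls Ccl21a lay at 27.8 to 39.1 RPKM, Il11ra1 at 8.39 to 9.07, Ccl19 at 2.14 to 5.36 and Cntfr at 0.155 to 0.203.

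The other genes on the gp130 receptor list went down or did not pass. Of 7 genes on it besides Il11ra1 and Cntfr, 2 fell and 0 rose (edgeR quasi-likelihood with Benjamini-Hochberg adjustment). Their median log2 fold change was -0.41. By unadjusted p under 0.05, 5 were lower and 1 higher, with DESeq2 3 and 1, and with limma-voom 2 and 0. Osmr, the oncostatin M receptor, fell from 395 ± 22.8 to 269 ± 4.80 CPM (log2 fold change -0.56 ± 0.09, adjusted p = 0.0244, edgeR). Crlf3, a cytokine receptor-like gene, fell by 0.45 ± 0.10 on the log2 scale (adjusted p = 0.0417, edgeR). It was counted with this list but is not an established chain of the family, which leaves Osmr as the call among such chains.

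Il6st, the gene of gp130 itself, was at 2219, 2477 and 2230 CPM in controls and 2004 and 1725 in knockouts. Both knockouts lay below all controls, but the gene did not pass (log2 fold change -0.31 ± 0.12, edgeR, adjusted p = 0.163). Lifr, the LIF receptor, had 618, 478 and 561 CPM in controls and 315 and 467 in knockouts, also below (-0.50 ± 0.19, edgeR, adjusted p = 0.154). Il6ra, the IL-6 receptor, stood higher, at 4.90 ± 0.37 and 7.40 ± 0.49 CPM (0.59 ± 0.16, edgeR, adjusted p = 0.0726).

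Per transcript length, the shared chain far exceeded the alpha chains. The mean RPKM of Il6st was 208 in controls and 168 in knockouts, that of Lifr 51.2 and 36.3, and that of Osmr 32.6 and 22.2. Il11ra1 stood at 8.62 and 11.8, Il6ra at 0.567 and 0.856 and Cntfr at 0.179 and 0.581. Of these 6 genes, the 3 with the lower levels had the higher values in knockouts and the 3 with the higher levels had the lower ones, a description with no test.

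Of the 8 tested ligand genes of the family, Lif fell, from 314 ± 28.9 to 178 ± 40.4 CPM (log2 fold change -0.82 ± 0.16, adjusted p = 0.0322, edgeR), and no other passed. The median of the list was 0.55. Il11, the ligand of IL-11 receptor alpha, had 1.77 ± 0.27 and 1.71 ± 0.35 CPM (-0.05 ± 0.29, edgeR, adjusted p = 0.943). Cntf, the ligand of the Cntfr product, had 1 to 9 counts in any library and was not tested. Il6 (0.49 ± 0.16, adjusted p = 0.107, edgeR) and Osm (0.87 ± 0.31, adjusted p = 0.134, edgeR) did not pass although both knockouts lay above all controls.

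Downstream, 2 of 18 signalling and feedback genes rose and 1 fell, with a median of -0.10. Those that rose were Cish (38.0 ± 5.08 to 62.6 ± 1.04 CPM, log2 fold change 0.72 ± 0.12, adjusted p = 0.0245, edgeR) and Socs2 (0.43 ± 0.08, adjusted p = 0.0292, edgeR), both feedback inhibitors of cytokine receptors that act through STAT5. Gab1, an adaptor, fell (-0.48 ± 0.10, adjusted p = 0.0407, edgeR). Socs3, the feedback inhibitor that binds gp130, had 1724 ± 199 and 1746 ± 198 CPM (0.02 ± 0.14, adjusted p = 0.953, edgeR), and Stat3 had a log2 fold change of -0.14 ± 0.11 (adjusted p = 0.496, edgeR).

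Among 18 known STAT3 target genes, Cebpb rose (356 ± 12.9 to 545 ± 32.3 CPM, log2 fold change 0.62 ± 0.09, adjusted p = 0.0197, edgeR), Osmr fell as given above, and the median was 0.18. All 7 calls of the gp130 lists were lost without control 1, 2 or 3. Crlf3 also lost its call without either knockout and with library totals alone, and Gab1 without knockout 1. With the offset for exon length and GC, Cish and Socs2 kept theirs, Lif was at -0.80 (adjusted p = 0.0554, edgeR) and Osmr at -0.36 (adjusted p = 0.127, edgeR).

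**Figure D3:**
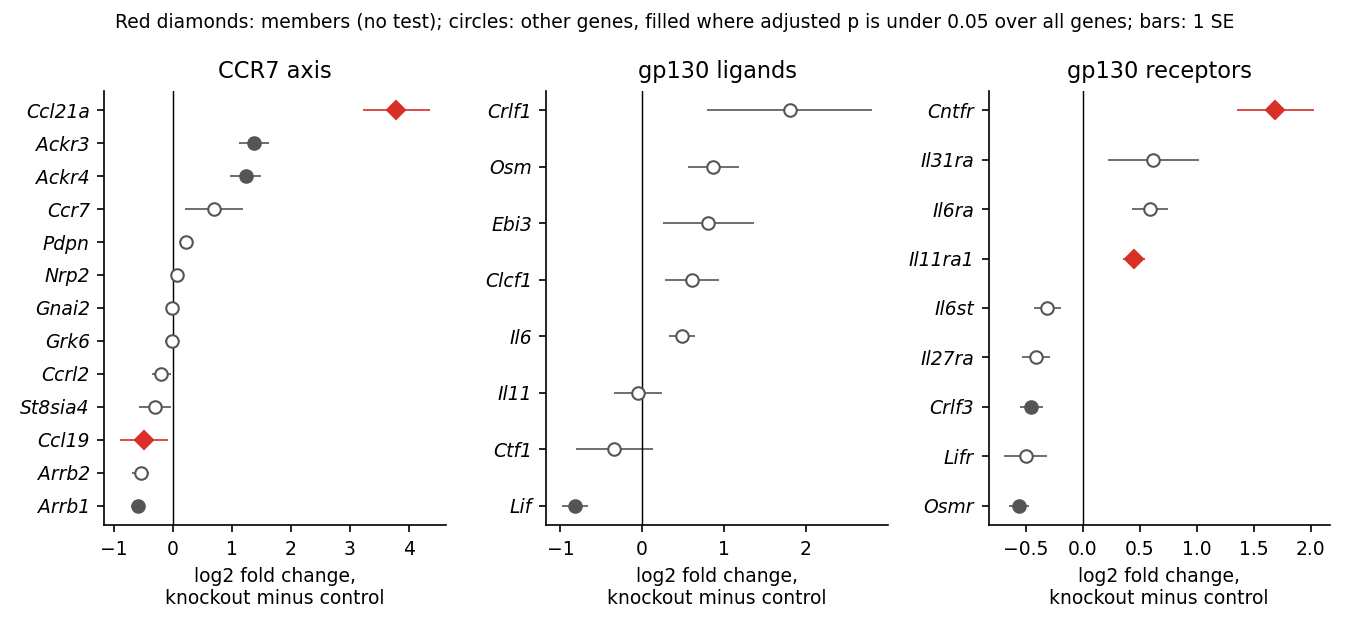
Log2 fold change, knockout minus control (horizontal axis, bars of 1 SE), of each tested gene of the CCR7 axis, the gp130 ligands and the gp130 receptors. Diamonds are the 4 genes described here, shown without a test, and filled circles are other genes past an adjusted p of 0.05. On the receptor list Cntfr and Il11ra1 lie to the right of 0 and Osmr, Lifr, Il27ra, Crlf3 and Il6st to the left.

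The neighbourhood was then examined by position alone. Within 1 Mb of Ccl19, 66 annotated genes other than the members were in the count table and 43 were tested; neither Il11ra1 nor Cntfr lies wholly inside this window. Of the 43, 2 rose and 1 fell, or 4.65% and 2.33%, against 3.25% and 3.99% of all genes. In 15 (34.9%) both knockouts lay above all controls and in 5 (11.6%) below, against 22.8% and 22.5% of all genes. The median log2 fold change was 0.18, with 28 values above and 15 below 0.

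Those that rose were Gm21541 and Tpm2 (chr4:43514711-43523765), the gene of a tropomyosin of muscle and stress fibres. The counts of Gm21541 are not independent of those of Ccl21a, so its call is not a separate finding about the neighbourhood. Tpm2 had 1.93, 1.44 and 1.60 CPM in controls and 5.64 and 3.66 in knockouts (log2 fold change 1.49 ± 0.27, adjusted p = 0.0292, edgeR). Tln1 (chr4:43531519-43562691), the gene of the integrin activator talin 1, fell from 523 ± 36.1 to 338 ± 40.2 CPM (log2 fold change -0.63 ± 0.12, adjusted p = 0.0292, edgeR). These neighbouring genes had opposite directions. All 3 calls were lost without control 1, 2 or 3, Tpm2 also without knockout 1 and Tln1 also with the offset for length and GC (-0.44).

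Next to Ccl19 and Ccl21a there was no call. None of the 10 tested genes nearest to Ccl19, at distances of 25.4 to 271 kb, passed (edgeR quasi-likelihood with Benjamini-Hochberg adjustment). Within 0.5 Mb of Ccl19, 0 of 12 passed, 3 were higher at an unadjusted p under 0.05, and DESeq2 called 1 higher and limma-voom 0. The nearest, the predicted gene Gm12394, had 0.324, 0.625 and 0.481 CPM in controls and 2.47 and 0.413 in knockouts, so it was high in knockout 1 alone (log2 fold change 1.59 ± 0.72, adjusted p = 0.215, edgeR). The protein-coding genes Vcp (0.09 ± 0.09), Pigo (-0.09 ± 0.14) and Fancg (0.18 ± 0.21), which serve protein turnover, membrane anchors and DNA repair, overlapped between groups. Stoml2 (0.24 ± 0.08), a gene of mitochondria, and the nearer genes Phf24 (0.59 ± 0.35) and Dnajb5 (0.42 ± 0.17) had both knockouts above all controls. In 1700022I11Rik (-0.36 ± 0.36) both lay below, and Gm21955 (-0.34 ± 0.53) overlapped.

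Around Cntfr and Il11ra1, the genes Enho, Dctn3, Galt and Rpp25l had both knockouts above all controls and did not pass the threshold; these were named after their values were seen. Enho, on the far side of Cntfr, had a log2 fold change of 0.53 ± 0.13 (adjusted p = 0.0571, edgeR). Inside the Il11ra1 body, Dctn3 (0.34 ± 0.10), Galt (0.34 ± 0.10) and Rpp25l (0.54 ± 0.25) had values like the 0.45 of Il11ra1 itself. None of them overlaps an Il11ra1 exon: of the 4471 exon bases of Il11ra1, 8 (0.179%) lie in another gene's exon, that of Ccl27a. Over the interval from Cntfr to Ccl21a, 14 other genes were tested, with a median of 0.40. In 8 (57.1%) both knockouts lay above all controls and in 1 (7.14%) below, against 22.8% and 22.5% of all genes. Among the 8 are the copy Gm21541 and the low-count predicted genes Gm13307, Gm17167 and Gm13301. This interval, whose ends are members, was added after the data were seen.

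Within 2 Mb, 73 genes were tested, 5 rose, the copy Gm21541 among them, and 2 fell, with a median of 0.12. The calls added were Aqp7 (0.845 ± 0.244 to 5.34 ± 0.53 CPM, log2 fold change 2.67 ± 0.30), a glycerol channel that is also on the blood endothelium list, Gne (0.98 ± 0.10), the first enzyme of sialic acid synthesis, Dcaf12 (0.47 ± 0.11) and Melk (-1.44 ± 0.33), a cell cycle kinase. Without control 3 none of the 7 calls was kept. Aqp7 and Gne kept theirs without control 1 or 2 and the other 5 did not, and Dcaf12 also lost its call without knockout 1 and Melk without knockout 2. Both lost theirs with library totals alone and with the offset for length and GC.

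**Figure D4:**
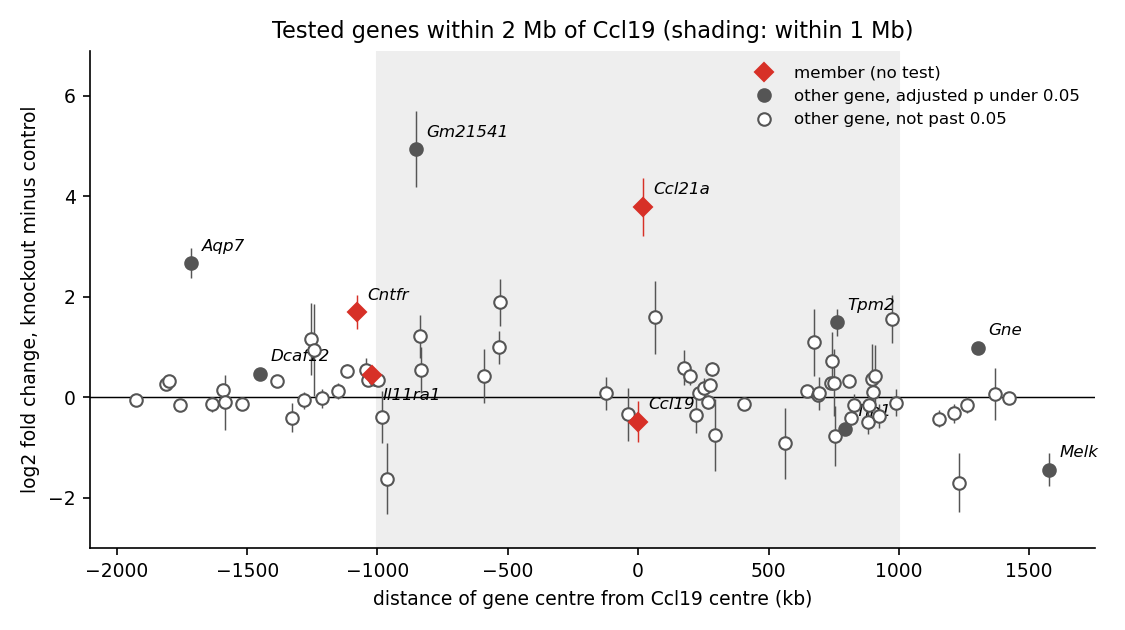
Log2 fold change, knockout minus control (vertical axis, bars of 1 SE), of each tested gene within 2 Mb of Ccl19 against the distance of its centre from the centre of Ccl19 (horizontal axis, kb; shading, 1 Mb to each side). Diamonds are the 4 genes described here, filled circles are other genes past an adjusted p of 0.05; most genes lie near 0, and Ccl21a and its copy Gm21541 stand highest, at 3.79 and 4.94.

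The genes whose log2 CPM followed each member most closely over the 5 libraries lay elsewhere in the genome, but for 1. For Ccl21a they were Neurl3 (Pearson r = 0.9996), Rmnd5b (0.9992) and Egln3 (0.999), with knockout 1 the highest and knockout 2 next in each. Egln3, an oxygen-dependent prolyl hydroxylase, had 2.72, 2.95 and 2.56 CPM in controls and 13.2 and 6.53 in knockouts. For Ccl19 they were Mrtfb (0.9893), Gart (0.9885) and S1pr3 (0.9868), a receptor of sphingosine 1-phosphate, which had 164.5, 89.0 and 128 CPM in controls and 109 and 94.4 in knockouts. Il11ra1 was followed by Necap2 (0.9998), Gstp1 (0.9994) and Rpa1 (0.999), and Cntfr by Ccdc127 (0.9997), Ap1s1 (0.9991) and Bag1 (0.9989). Bag1, a partner of heat shock protein chaperones, lies on chromosome 4 as well, 1806 kb from Ccl19. With so few libraries such values are common: r was above 0.95 for 439 of 10761 genes compared with Ccl21a, 365 with Il11ra1 and 364 of 10762 with Cntfr, and for 26 with Ccl19.

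Markers of other cells were read in the same libraries, and their part in the values of the members was not tested. CCL21 is made in lymph nodes by LECs, fibroblastic reticular cells and, in mice, high endothelial venules. Of 17 tested fibroblastic reticular cell markers besides Ccl19, Cd34 rose (1.94 ± 0.23, adjusted p = 0.0128, edgeR) and no other passed, with a median of 0.64. By unadjusted p under 0.05 (edgeR), 4 were higher and 0 lower, with DESeq2 3 and 0, and with limma-voom 1 and 0. Their summed level was 1444 to 1567 CPM in controls, 2657 in knockout 1 and 1840 in knockout 2. Most of this sum was Vim, the gene of vimentin, which many cells express, with 910, 971 and 1011 CPM in controls and 1437 and 1188 in knockouts. The collagen gene Col1a1, a defining marker, had 26.4, 19.0 and 6.77 CPM in controls and 43.0 and 7.29 in knockouts, and the proteoglycan gene Dcn had 217, 325 and 234 against 692 and 332. In 5 of the 17 the log2 fold change was below 0, among them Lum (-0.82 ± 0.63), Bst1 (-0.34 ± 0.22), Pdgfrb (-0.28 ± 0.42) and Cxcl13 (-0.23 ± 0.74), none of which passed. Pdgfrb, a defining marker, had 2.49, 2.90 and 2.33 CPM in controls and 3.105 and 1.135 in knockouts.

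Of 12 high endothelial venule markers, Ackr1 (1.15 ± 0.21, adjusted p = 0.0275, edgeR) and Ubd (0.59 ± 0.12, adjusted p = 0.0343, edgeR) rose and Madcam1 fell (-0.96 ± 0.19, adjusted p = 0.0356, edgeR). Their summed level was 2983 to 3466 CPM in controls and lower, at 2478 and 2777, in knockouts 1 and 2. A large part of it was Enpp2, with 1155, 1071 and 1130 CPM in controls and 592 and 879 in knockouts, which did not pass. Of the 12 log2 fold changes, 7 were above 0 and 5 below, so the lower sum does not describe the list as a set. Glycam1, a defining marker, had 764, 439 and 442 CPM in controls and 489 and 257 in knockouts. Of 16 blood endothelium markers, 10 rose and 0 fell, with a median of 1.23 (edgeR; 13 higher and 0 lower with DESeq2 or at an unadjusted p under 0.05). Their sum was 4092 to 4548 CPM in controls and 6317 and 6443 in knockouts. Most of it was Plvap (2787 and 3628 CPM in knockouts 1 and 2) and Cd36 (2386 and 1708), neither of which passed. Single markers differed between the knockouts in both directions. Aqp1 (431 and 244 CPM) and Car4 (16.9 and 5.36) were higher in knockout 1, as Ccl21a was, and Ly6c1 (14.9 and 22.3) and Flt1 (19.5 and 39.4) in knockout 2. Aqp7 of the 2 Mb window and Cd34 are on this list. Without control 3, 0 of the 10 kept their call, Cd34 included, while 7 did without control 1, 6 without control 2 and 9 without either knockout. The venule calls were all lost without control 1 or 3 as well. Ackr1 and Ubd also lost theirs without control 2, Madcam1 without either knockout, and Ubd without knockout 1, with library totals alone and with the offset for length and GC.

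Pericyte and smooth muscle markers summed to 128 to 163 CPM in controls and 206 and 164 in knockouts, and 3 of 11 rose. Acta2 among them had 1.87, 1.76 and 1.94 CPM in controls and 35.8 and 4.50 in knockouts, with knockout 1 the highest as for Ccl21a and Tpm2. The others were Kcnj8 and Mcam. Without control 2 or 3 none of the 3 kept its call. Without control 1, with limma-voom and with the offset for length and GC Kcnj8 alone did. Mcam also lost its call without knockout 1 and with library totals alone, and Acta2 with no filter on low counts. Dendritic cell markers, CCR7-bearing cells included, summed to 440 to 479 CPM in controls and 386 and 415 in knockouts, most of it Zbtb46 and Fscn1. Of 11 tested, 0 passed (edgeR; 1 higher and 2 lower at an unadjusted p under 0.05, 1 lower with DESeq2 and with limma-voom). T and B cell markers summed to 34.2 to 39.6 CPM in controls and 44.8 and 56.1 in knockouts, and 1 of 11, Il7r, fell, a call lost without control 1, 2 or 3. No marker of these lists was at 0 in all 5 libraries.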

How the data were processed

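RNA was read as single 50-base reads from SMART-Seq v4 and Nextera XT libraries, per the labels' protocols; these kits mark neither strand nor molecule. Whole-number read counts for each Ensembl gene were deposited, with 1 column for each library according to the header. Tools named in the submitters' processing notes are HTSeq 0.6.1, Bowtie2 2.1.0, TopHat2 2.0.14 and bcl2fastq 2.17.1.14, with the build mm10. Settings, annotation release and the treatment of multi-mapping reads were not given in the sources used here. Identifiers of 27648 genes matched GENCODE M21 (GRCm38) or its name table.

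The 4 members, the lists and the windows were chosen with earlier results of these data known. Counts were fitted in R 4.3.3 with edgeR 4.0.16 (filterByExpr with a minimum count of 10, TMM, robust quasi-likelihood F test of knockout against control, all 5 libraries, no block). Adjusted p-values are Benjamini-Hochberg over the 15874 genes tested, with 0.05 as the threshold. The SE was taken as the size of the log2 fold change over the root of F. The code was tested on simulated data. P-values measure only the spread between these 5 libraries, which may in part be technical. CPM use TMM-scaled totals, and RPKM also the union exon length. Before scaling by the TMM factors, which were 0.974 to 1.03, 1 CPM stood for 52.8 to 70.2 reads.

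Copies were sought as exact windows of 50 bases in the annotated transcripts of GENCODE M21, in place of the genome that had been planned; unannotated copies and unplaced scaffolds were not searched. Promoter windows are from RefSeq (GRCm38.p6), which held all 4 members. Genes were named by rule: the members and their copies, genes within 1 Mb of Ccl19 that passed or were the 10 nearest, list genes that passed (at most 6 a list), Ccr7, Ackr4, Il6st and Lifr, and the 3 genes of mean log2 CPM of at least 1 most alike each member. Other genes named, among them those of the 2 Mb window and around Il11ra1, list genes that did not pass and the cell type markers, were picked once their values had been seen. The result of 1 gene of the region is not reported here. Alternatives were library totals alone, RLE size factors, no filter on low counts, 1 CPM in 2 libraries, DESeq2 1.42.0, limma-voom (limma 3.58.1), the replicate number as a block, an offset for exon length and GC (loess, span 0.5) with and without it, each library left out, and other windows.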

Additional observations from a re-analysis of the deposited data

How the results depend on the processing

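The direction of each of the 4 members was the same under all 14 alternatives. The log2 fold change of Ccl21a was 2.28 without knockout 1 and otherwise 3.13 to 4.50, that of Il11ra1 0.35 without knockout 1 and otherwise 0.43 to 0.54, that of Ccl19 -0.78 to -0.17 and that of Cntfr 1.52 to 1.83. The median of all genes was furthest from 0 with no filter, at -0.033.

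The counts of calls depended on the processing, and the cause was not tested. Against 516 genes higher and 634 lower, DESeq2 called 1254 and 1466, the offset for length and GC called 330 lower, and leaving out 1 library gave 2 to 784 higher and 9 to 1125 lower, the fewest without control 3 (135 and 131 without control 1, 78 and 95 without control 2). Within 1 Mb of Ccl19 (2 higher, 1 lower), the filter at 1 CPM gave 4 higher, DESeq2 8 and 2, the offset 0 lower, and leaving out 1 library 0 to 4 higher and 0 to 3 lower. Windows of 0.5 Mb gave 0 and 0, of 2 Mb 5 and 2, and the interval from Cntfr to Ccl21a, added after the data were seen, 1 and 0. Gm21541, whose counts are not independent of those of Ccl21a, is counted within 1 Mb and 2 Mb and is the 1 gene of the interval. For the CCR7 axis (2 and 1), no filter gave 0 higher, DESeq2 2 lower, the offset 0 lower, and leaving out 1 library 0 to 2 higher and 0 to 1 lower. For the gp130 lists together (3 and 4 of 49), DESeq2 gave 7 and 7, the offset 0 lower, and leaving out 1 library 0 to 6 higher and 0 to 8 lower.

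Deviations from the group means had a correlation of 0.048 between the libraries of number 1 and -0.052 between those of number 2. With 2 knockouts each deviation is the reverse of the other, so these values can neither show nor exclude pairing. The labels do not say that a number marks a litter, so whether libraries of the same number belong together is not known. With the replicate number as a block, 0 genes were called in either direction over all genes, within 1 Mb, in the CCR7 axis and in the gp130 lists. The block together with the offset called 0 higher and 3 lower over all genes and 0 in both directions in the window and the lists. The members kept log2 fold changes of 3.29 (Ccl21a), -0.34 (Ccl19), 0.49 (Il11ra1) and 1.70 (Cntfr) in the block.

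The share of transcript windows found in other genes was 78.1% for Ccl21a, 56.8% for Ccl19 and 54.3% for Il11ra1 with 36 bases and 50.3%, 39.3% and 29.1% with 100 bases, and 0 for Cntfr with both. Depth limits Cntfr, at 26 to 98 counts, and Gm21541, at 15 to 29 counts in controls.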

Other observations

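The lymphotoxin beta receptor and the non-canonical NF-kB pathway, known to drive homeostatic chemokines in lymph node stroma, gave 3 lower and 0 higher genes of 13 tested, with a median log2 fold change of -0.14 (edgeR quasi-likelihood with Benjamini-Hochberg adjustment; 4 lower and 1 higher at an unadjusted p under 0.05, 4 and 0 with DESeq2, 3 and 0 with limma-voom). Ltb, the gene of lymphotoxin beta, fell from 161 ± 2.73 to 107 ± 15.5 CPM (-0.58 ± 0.11, adjusted p = 0.0294, edgeR). Traf3, an inhibitor of the pathway, fell by 0.50 ± 0.10 on the log2 scale (adjusted p = 0.0384, edgeR) and Birc3, its partner, by 0.73 ± 0.17 (adjusted p = 0.0475, edgeR). The receptor gene Ltbr had 50.0 ± 1.72 and 59.2 ± 1.00 CPM and the transducers Nfkb2 and Relb log2 fold changes of 0.00 ± 0.09 and 0.11 ± 0.10, none past the threshold. The 3 calls were lost without control 1, 2 or 3. With the offset for length and GC Ltb alone kept its call (Birc3 at an adjusted p of 0.085, edgeR), and Traf3 also lost its own with library totals alone and without knockout 2.

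Of 7 other homeostatic chemokine genes tested, 0 passed in either direction (edgeR; 2 were higher at an unadjusted p under 0.05 and with DESeq2, and 0 with limma-voom), with a median of 0.28. Cxcl12, the chemokine that Ackr3 takes up, had 28.3, 26.1 and 15.6 CPM in controls and 42.1 and 49.5 in knockouts, both above all controls (0.97 ± 0.24, adjusted p = 0.0579, edgeR). Cx3cl1, which encodes fractalkine, had 45.6, 59.0 and 61.5 CPM in controls and 65.9 and 112 in knockouts (0.68 ± 0.23, adjusted p = 0.117, edgeR). Here knockout 2 was the higher, the reverse of Ccl21a. Cxcl13, the B cell chemokine, overlapped between groups at 18.2, 7.40 and 28.6 against 26.04 and 4.73 CPM.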
